A study of Homo sapiens with 48 samples.

Results

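The response of dKO-19 cells to SNX631 was described from 6 RNA-seq libraries, 3 of cells given the Mediator kinase inhibitor and 3 of cells given vehicle, out of the 48 libraries of the series. The libraries were identified by their titles, and every gene of the table that passed a filter on low counts was examined, which left 20009 of 61815 genes. dKO-19 derives from 22Rv1, a human castration-resistant prostate cancer line. Its parent cells had lost CDK8 and CDK19, the pair of Mediator kinase genes, by knockout, and active CDK19 was then put back with a lentivirus, so the vehicle controls carry the same knockouts and the same transgene as the treated cells. Cells were grown in fetal bovine serum (FBS) and received 500 nM SNX631 or 0.1% DMSO for 72 hours. The kinase is made from a viral insert rather than from its own locus, and the labels do not say whether the line is 1 clone, whose traits would then be shared by all 6 libraries. The study's methods call the replicates biological but do not say whether they were separate passages or wells of 1 culture, and p-values measure the spread between these libraries.

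Mediator is the large complex through which gene-specific transcription factors reach RNA polymerase II, and a detachable part of it carries a cyclin-dependent kinase, either CDK8 or CDK19. These kinases phosphorylate transcription factors and parts of the polymerase machinery, so that their inhibition can raise some genes and lower others. In dKO-19 the inhibitor meets cells whose active Mediator kinase is CDK19. A matching line, dKO-19M, carries a kinase-inactive CDK19 in place of the active form, dKO-8 carries active CDK8, and Rv1-WT is the unmodified 22Rv1 line. Each of these was treated in the same medium, at the same dose and for the same time, in 3 libraries per group. dKO-8M carries a kinase-inactive CDK8, and Rv1-Luc is a luciferase-expressing 22Rv1 line. Both were treated alike, in 3 libraries per group, and serve for values side by side. Rv1-WT and Rv1-Luc were also treated in charcoal-stripped serum (CSS), which is low in androgen.

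The 6 dKO-19 libraries held 20.5 to 24.8 M counts, within the 13.2 to 31.5 M of the whole series. Levels are given as CPM, counts scaled to the size of the library, with library sizes adjusted by TMM (trimmed mean of M values). Replicate pairs of dKO-19 differed by 1.32 to 2.66 in chi-square per degree of freedom. One library elsewhere stood apart, vehicle replicate 1 of dKO-19M, with values of 16 and 15.5 against its replicates and 1.42 between those. SNX631 replicate 1 of dKO-19M did so less, with 3.24 and 2.84 against its replicates and 1.56 between those. All 11 luminal prostate markers lay above 1 CPM in both groups. Their summed level was 4850 to 5070 CPM under vehicle and 5770 to 5840 CPM under SNX631, and the highest of them, keratin 8, was at 2280 to 2420 CPM and 3320 to 3410 CPM. The summed levels of 3 basal markers (KRT5, KRT14 and TP63) reached at most 0.0479 CPM in any library, with KRT5 and KRT14 at 0 counts, and those of 6 fibroblast, 4 endothelial and 6 leukocyte markers at most 4.88, 0.987 and 1.09 CPM. In bulk RNA, fewer cells of a type and less RNA per cell cannot be told apart.

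The transcripts of the kinase module were examined before any other gene. CDK19, the kinase put back, stood at 507, 519 and 505 CPM under vehicle and at 496, 470 and 469 CPM under SNX631. The vehicle libraries thus sat above the treated ones by a small margin, with a log2 fold change of -0.09 ± 0.040 (SE) that did not pass the test (adjusted p = 0.0975, edgeR's quasi-likelihood test with Benjamini-Hochberg adjustment, as throughout). For comparison, CDK19 under vehicle was 298 to 354 CPM in dKO-19M, 101 to 105 CPM in dKO-8 and 148 to 150 CPM in Rv1-WT. CDK8 transcript was still counted in dKO-19, at 26.1, 28.2 and 28.9 CPM under vehicle and 26.8, 24.9 and 26.6 CPM under SNX631. A transcript count does not report whether the disrupted gene gives protein. None of the 7 module genes was called in dKO-19, and the others ran from -0.22 for MED13L to 0.32 for MED12L on the log2 scale. The CDK19 effect in dKO-19 differed from that in dKO-8 by -0.41 ± 0.060 (adjusted p = 1.96e-06). From that in Rv1-WT it differed by -0.48 ± 0.060 (adjusted p = 2.18e-08), both within the fold limit.

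SNX631 raised some genes and lowered others in dKO-19 cells. Called genes are those with a false discovery rate below 0.01 and a change of more than 1.5-fold. By this rule 375 genes were higher under SNX631 (1.87% of the genes tested) and 307 were lower (1.53%), 682 in all (3.41%). Rises reached further than falls, since 204 genes rose (1.02%) and 108 fell (0.54%) by over 2-fold, and 61 rose (0.305%) and 12 fell (0.06%) by over 4-fold. Without the fold limit, 1107 genes were higher (5.53%) and 1534 lower (7.67%) at the same false discovery rate, so that more of the small changes were downward. With library totals as the only scaling, the 375 and 307 calls became 451 and 262. The number of all tested genes below 0 went from 10096 to 7886, so the downward lean of small changes may depend on the scaling. The libraries of both groups did not overlap at 7543 genes, 37.7% of those tested. Among biotypes, 3.93% of 14087 protein-coding genes and 2.66% of 1465 lncRNAs were called.

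**Figure D1:**
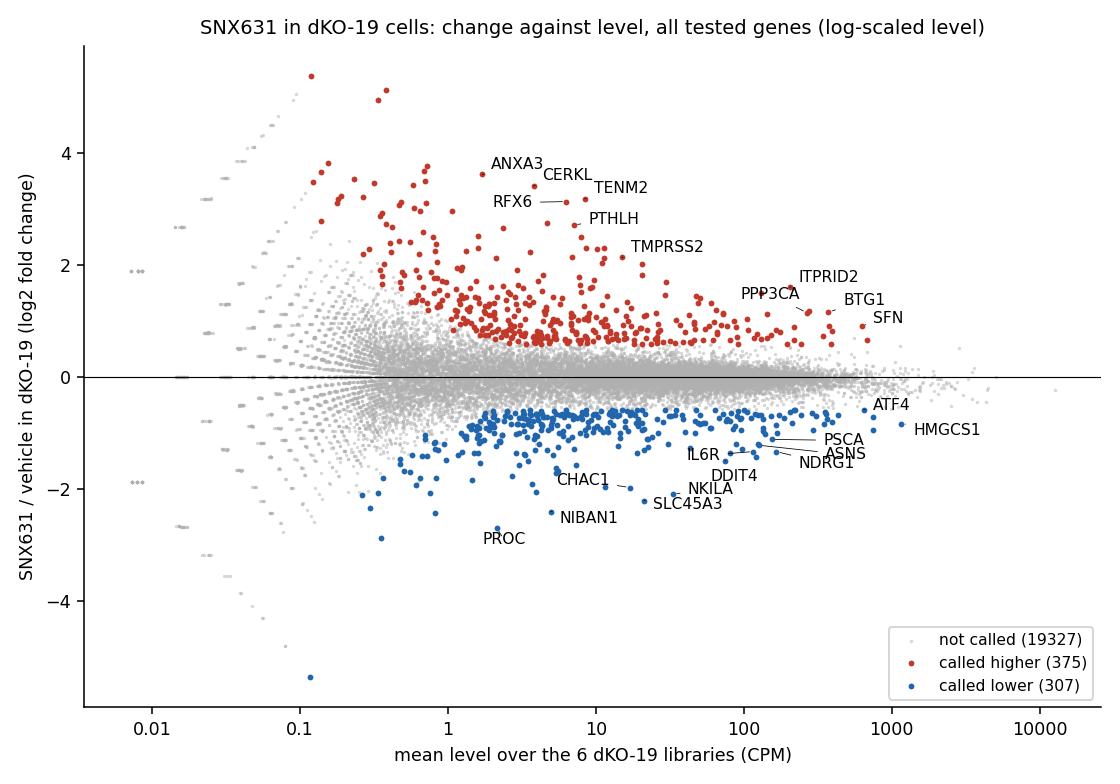
Each point is 1 of 19905 tested genes with counts in dKO-19, placed by its mean level over the 6 libraries (CPM, log axis) and its log2 fold change, SNX631 over vehicle; coloured points mark the 375 genes called higher and the 307 called lower. The highest points, among them ANXA3, TENM2 and PTHLH, lie at low to middle levels, and called genes of high level such as ATF4 and HMGCS1 changed less.

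The largest rise, among genes of at least 1 CPM on average, was that of ANXA3, an annexin that binds membranes in a calcium-dependent way. It stood at 0.283, 0.308 and 0.175 CPM under vehicle and at 3.21, 2.75 and 3.54 CPM under SNX631, a 12.3-fold rise resting on 4 to 6 counts per vehicle library (log2 fold change 3.62 ± 0.36, adjusted p = 2.62e-12). The groups were far apart despite the low vehicle level. CERKL, a ceramide kinase-like gene, rose from 0.518, 0.976 and 0.48 CPM to 6.89, 6.65 and 7.28 CPM. TENM2, a teneurin of cell adhesion, rose from 2.07, 1.49 and 1.44 CPM to 16, 14.3 and 15.2 CPM. Neither gene had overlapping groups, and their folds were 10.6 and 9.06.

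Several of the genes that rose most encode signals and receptors. PTHLH encodes parathyroid hormone-related protein, a secreted hormone known in bone metastasis. Its level went from 2.12, 1.95 and 1.57 CPM to 12.1, 12.9 and 11.9 CPM, 6.56-fold (log2 fold change 2.71 ± 0.17, adjusted p = 9.2e-20). The vasoconstrictor peptide endothelin 2 and an endothelin receptor rose together, as 2 of the 15 largest rises. EDN2 went from 3.86, 2.57 and 3.93 CPM to 16.4, 17.4 and 17.1 CPM, and EDNRA from 3.2, 1.85 and 2.1 CPM to 12.6, 13.2 and 14.6 CPM. Treated libraries lay above all vehicle libraries for both, with log2 fold changes of 2.28 ± 0.21 and 2.49 ± 0.18. RFX6, a transcription factor of pancreatic islet development, rose 8.76-fold, from 1.18 to 1.46 CPM up to 10 to 12 CPM. SCGN, the calcium sensor secretagogin of neuroendocrine cells, rose 6.76-fold, from 1.22, 1.34 and 1.05 CPM to 8.95, 7.72 and 7.69 CPM. The other large rises were those of LRP2 (megalin, an endocytic receptor), NXPH2, ZNF385B, CCDC85A, FBN2 (fibrillin 2, of extracellular microfibrils) and FABP7 (a fatty acid-binding protein), by 4.73-fold in FABP7 to 6.34-fold in LRP2. LRP2 and NXPH2 held as few as 5 counts in a vehicle library. The log2 fold change of LRP2 was 2.66, and 3.29 without vehicle replicate 2, and that of NXPH2 was 2.52, and 3.31 without vehicle replicate 3.

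The genes that fell most included prostate secretory and stress genes. PROC, the precursor of the anticoagulant protein C, went from 3.53, 3.49 and 4.1 CPM to 0.431, 0.558 and 0.718 CPM, a 6.52-fold drop (log2 fold change -2.71 ± 0.27, adjusted p = 3.62e-12). NKILA, a long noncoding RNA known to restrain NF-kappaB signalling, went from 56.5, 52 and 52.8 CPM to 11.2, 12.2 and 14.4 CPM (log2 fold change -2.10 ± 0.078, adjusted p = 6.72e-30). All vehicle libraries lay above all treated ones for both genes. VEGFC, a growth factor of lymphatic vessels, fell from 19.8, 18.5 and 17.2 CPM to 6.27, 4.25 and 3.54 CPM. RET, the receptor tyrosine kinase for ligands of the GDNF family, fell from 4.15, 4.37 and 4.02 CPM to 1.05, 1.2 and 1.38 CPM. ASS1, the enzyme that makes argininosuccinate in arginine synthesis, fell from 8.39, 9.09 and 7.99 CPM to 2.15, 2.23 and 3.59 CPM. These drops were 3.94-fold for VEGFC, 3.44-fold for RET and 3.22-fold for ASS1, and no group overlapped. The adhesion genes PCDH19 and SDK1 fell 3.28-fold and 3.1-fold, STXBP6, a regulator of SNARE complexes, 2.98-fold, PPP1R1A, an inhibitor of protein phosphatase 1, 3-fold, and MFSD4A 4.18-fold. RELN, which encodes the secreted glycoprotein reelin, fell 2.91-fold, with the weakest evidence of the 15 largest falls (adjusted p = 0.00277). RELN was no longer called when SNX631 replicate 1, SNX631 replicate 2 or vehicle replicate 3 was left out, at log2 fold changes of -1.37 to -1.47.

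Genes of the amino acid and stress response fell as a broad group. In this response, translation of the transcription factor ATF4 under stress leads to expression of amino acid synthesis enzymes, transporters and tRNA synthetases, together with regulators such as CHOP (DDIT3). Of 77 tested genes in 6 lists of this response, 32 were called lower (41.6%, against 1.53% of all genes) and 0 higher, and 68 had a log2 fold change below 0. The median log2 fold change was -0.53, against -0.002 over all genes tested. As background, the motif most tied to ATF4 is the C/EBP-ATF response element. Its letters, searched as TGATGNAAN on both strands in the 250 bases before each RefSeq gene start (GRCh38.p14), occurred in 187 of 12620 tested genes that had a sequence (1.48%). It occurred in 4 of 25 called stress genes (16%) and in 5 of the 35 that were not called (14.3%). Among all genes called lower it occurred in 12 of 215 (5.58%), and among those called higher in 5 of 248 (2.02%). Under 80% of each set had a sequence, so the shares describe these promoters and a comparison of them is void. Positions depend on the RefSeq start. In FGF21 and MTHFD1L, no transcript of GENCODE, another annotation, held the bases after that start within its first part. The letters printed below for ASNS, CHAC1 and MTHFD1L lay inside 1, 2 and 1 GENCODE transcripts. The 4 matches in called stress genes follow, to show the letters beside the genes whose levels are given next. Each is written 5′ to 3′ on the strand of its gene, with the match in capitals; in CHAC1 and FGF21 the motif lies on the opposite strand and its complement is seen.
ASNS, minus strand, chr7:97872458-97872486, match at -68 to -60 from the start: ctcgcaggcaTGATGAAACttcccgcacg
CHAC1, plus strand, chr15:40953251-40953279, match at -210 to -202: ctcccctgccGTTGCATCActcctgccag
FGF21, plus strand, chr19:48755459-48755487, match at -55 to -47: aaacaccaggATTGCATCAgggaggagga
MTHFD1L, plus strand, chr6:150866347-150866375, match at -129 to -121: ccgccggctcTGATGCAATcgcgccgggc

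Among the regulators, 9 of 19 genes were called lower, with a list median of -0.59. ATF4 itself went from 798, 753 and 776 CPM to 515, 515 and 519 CPM, with no overlap, and its log2 fold change of -0.59 ± 0.052 (adjusted p = 3.57e-13) lay just past the fold limit. Without SNX631 replicate 2 or vehicle replicate 1 it was -0.58 or -0.57, within the limit, and ATF4 kept its call in 9 of 17 alternative settings. CHAC1, a glutathione-degrading enzyme and known target of this response, went from 28.7, 27.2 and 25.4 CPM to 6.51, 6.99 and 7.07 CPM. This was the largest fall of the 4 genes with a printed match and a well-measured level, 3.94-fold. DDIT4, a stress-induced inhibitor of mTORC1, went from 113, 110 and 110 CPM to 37.1, 39.3 and 41 CPM, and NIBAN1, another stress-induced gene, from 8.34, 8.22 and 8.51 CPM to 1.63, 1.42 and 1.69 CPM. These were falls of 2.84-fold and 5.31-fold. DDIT3 fell 2.29-fold and the translation repressor EIF4EBP1 1.68-fold. SESN2, which restrains mTORC1 signalling, went from 64.1, 60.4 and 61.5 CPM to 32.6, 30.5 and 29.6 CPM. The remaining calls were CEBPB and the proapoptotic BBC3, at log2 fold changes of -0.80 and -0.60. BBC3 lost its call without SNX631 replicate 1 (-0.56) or vehicle replicate 1 (-0.52). ATF3 and TRIB3, equally known in this response, stayed within the fold limit at log2 fold changes of -0.52 and -0.46.

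The lists of enzymes and carriers downstream had median log2 fold changes from -0.65 in serine and one-carbon synthesis to -0.23 in tRNA synthetases. ASNS, which makes asparagine, went from 175, 176 and 178 CPM to 72.9, 76.1 and 77.1 CPM (log2 fold change -1.22 ± 0.095, adjusted p = 2.57e-12). PCK2, the mitochondrial phosphoenolpyruvate carboxykinase, went from 146, 132 and 135 CPM to 53.6, 57 and 57.3 CPM. With the transaminase GPT2 and the proline synthesis enzyme PYCR1 they made 4 of 9 genes of asparagine, proline and transsulfuration metabolism. In serine and one-carbon synthesis 6 of 10 genes fell, namely PHGDH, PSAT1, PSPH, MTHFD2, MTHFD1L and ALDH1L2, by 1.51-fold to 1.96-fold. PSAT1, for example, went from 500, 501 and 499 CPM to 280, 287 and 286 CPM. Of 13 amino acid transporters 7 fell, among them the paired subunits of the large neutral amino acid carrier, SLC7A5 and SLC3A2, and the cystine importer SLC7A11. SLC7A5 went from 1044, 949.5 and 949.8 CPM to 516, 509 and 505 CPM, and SLC7A11 from 116, 132 and 123 CPM to 54.3, 52.5 and 54 CPM. No library of either group crossed over. Of the 7, SLC7A1, a carrier of cationic amino acids, lost its call without vehicle replicate 1 (-0.58). PYCR1 lost it without SNX631 replicate 1 (-0.57) or vehicle replicate 3 (-0.58), and MTHFD1L without SNX631 replicate 1 (-0.58), SNX631 replicate 2 (-0.57) or vehicle replicate 2 (-0.57). Only SARS1 and CARS1 of 20 tRNA synthetases passed the fold limit, although 11 of the 20 passed the false discovery rate.

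Among secreted factors induced by this stress, 4 of 6 were lower. STC2 (stanniocalcin 2) went from 76.3, 76.2 and 77.9 CPM to 40.5, 38.8 and 42.4 CPM, ADM2 fell 1.84-fold and VEGFA 1.54-fold. FGF21, a metabolic hormone, was called too, but held 8 to 14 counts per vehicle library and 1 to 3 per treated one, so no fold is given. Its call was lost without SNX631 replicate 1 or vehicle replicate 3. In contrast, 0 of 26 genes of endoplasmic reticulum (ER) folding were called, with a median of 0.002, and 1 was called when any library but SNX631 replicate 3 was left out. HSPA5, the ER chaperone BiP, was at 539, 526 and 534 CPM under vehicle and 564, 534 and 549 CPM under SNX631, with overlapping groups. DNAJB9 and SDF2L1, also of the ER, had log2 fold changes of -0.04 and 0.03.

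Called androgen response genes lay on both sides, and smaller changes were mostly downward. Androgen signalling acts on prostate enhancers together with factors such as FOXA1, GATA2 and HOXB13, and its classical target genes include kallikreins and TMPRSS2. Of 38 tested androgen response genes, 3 were called higher and 5 lower, against 1.87% and 1.53% of all genes. Without the fold limit 3 were higher and 17 lower, against 5.53% and 7.67% of all genes, and the median log2 fold change was -0.22. TMPRSS2, a transmembrane serine protease, went from 5.61, 4.98 and 6.02 CPM to 24.5, 24.8 and 23.9 CPM, a 4.39-fold rise (log2 fold change 2.13 ± 0.086, adjusted p = 2.2e-28). SLC45A3, a solute carrier also known as prostein, went the other way, from 34.2, 34.6 and 35.6 CPM to 8.57, 6.99 and 6.97 CPM, a 4.64-fold fall (log2 fold change -2.21 ± 0.092, adjusted p = 7.05e-28). KLK3, which encodes prostate-specific antigen, went from 5.04, 6.06 and 6.5 CPM to 1.2, 2.06 and 1.33 CPM. The groups were separate for all 3 genes. ELL2, an elongation factor, and the kallikrein KLK4 rose 1.58-fold and 1.53-fold, while NDRG1 and HPGD fell 2.53-fold and 1.63-fold and GREB1 had a log2 fold change of -0.82. KLK4 lost its call without SNX631 replicate 3 (log2 fold change 0.54). FKBP5, at a log2 fold change of 0.14, was not called.

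Among 15 steroid receptors and luminal factors, GATA2, GATA3 and EHF rose and 0 fell, with a median of 0.14 and 20% called against 3.41% of all genes. EHF, an epithelial ETS factor, went from 114, 116 and 113 CPM to 190, 188 and 195 CPM, and GATA2 from 49.3, 50 and 46.8 CPM to 81.6, 83.4 and 82.6 CPM. FOXA1 was lower by a margin within the fold limit, at 981, 950 and 933 CPM against 762, 732 and 733 CPM (log2 fold change -0.36), and HOXB13 was higher by a like margin (log2 fold change 0.29).

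Genes of secretion, differentiation and signalling rose in small numbers. Of 18 neuroendocrine and secretory vesicle genes 4 rose and 0 fell (22.2% called, against 3.41% of all genes), with a list median of 0.11: SCGN, the prohormone convertase PCSK1, the synaptic regulator RIMS3 and the granule protein CHGB. RIMS3 went from 62, 64.1 and 60.7 CPM to 113, 117 and 115 CPM, and CHGB from 9.38, 10.8 and 9.39 CPM to 15.1, 16 and 15.8 CPM. The 6 neuroendocrine marker genes as a sum stood at 77.4 to 84.6 CPM under vehicle and 70.4 to 78.9 CPM under SNX631, most of it synaptophysin. Of 21 TGF-beta and BMP genes 4 rose (19% called), 3 of them ID genes, which encode inhibitors of helix-loop-helix factors and are known BMP targets. ID1 went from 38.9, 38.9 and 40.3 CPM to 89.9, 91.9 and 88.3 CPM, ID2 from 91, 86.5 and 92.1 CPM to 195, 195 and 197 CPM, and ID4 from 35.5, 31.5 and 34.7 CPM to 79.8, 89.2 and 86.4 CPM. These treated values were all above the vehicle range. The activin subunit INHBB rose 1.52-fold, a call lost without SNX631 replicate 2 or vehicle replicate 3 (log2 fold change 0.50 in both), and SMAD6 and SMAD7 were not called (log2 fold changes of 0.33 and 0.02). In the Wnt list 3 of 23 genes rose (13%), namely the secreted inhibitor DKK1, the receptor-degrading ligase RNF43 and the ligand WNT7B, while the list median was -0.09. DKK1 went from 3.63, 3.96 and 4.67 CPM to 11.4, 11.7 and 12.1 CPM. Keratins KRT80 and KRT15 rose among 7 tested (28.6%), from under 1 CPM, and VIM (vimentin) and CLDN1 (claudin 1) among 19 junction and mesenchymal genes (10.5%). CLDN1 was not called without SNX631 replicate 1 (log2 fold change 1.75) or vehicle replicate 3 (1.36).

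Metabolic lists leaned downward. Among 28 hypoxia and glycolysis genes 5 fell and 1 rose (21.4% called, against 3.41% of all genes), and 23 lay below 0 (median -0.27). HK2, the hexokinase of the first step of glycolysis, went from 190, 192 and 186 CPM to 118, 118 and 116 CPM. ALDOC, an aldolase, went from 67.8, 61 and 55.7 CPM to 27.1, 24.2 and 25.4 CPM, and NDRG1 from 238, 256 and 219 CPM to 94.7, 93.3 and 94.1 CPM. VEGFA and the mitophagy gene BNIP3 completed the falls, and the phosphofructokinase PFKP was the rise, which was not called without SNX631 replicate 1 (log2 fold change 0.52) or vehicle replicate 3 (0.53). Cholesterol genes were low as a whole, 25 of 26 below 0 with a median of -0.25, but just HMGCS1 (1.78-fold) and INSIG1 (1.69-fold) were called (7.69%). HMGCS1, an early enzyme of the mevalonate pathway, went from 1452, 1535 and 1477 CPM to 827, 842 and 832 CPM. The lean of the cholesterol list was also seen in kinase-inactive lines, with medians of -0.16 in dKO-19M and -0.14 in dKO-8M. The median was 0.04 in dKO-8, -0.32 in Rv1-WT and -0.12 in Rv1-Luc in FBS. In the NRF2 antioxidant list SLC7A11 and FTL (ferritin light chain) fell and the efflux pump ABCC2 rose, among 19 (15.8%).

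Growth regulators changed in single genes, and mitosis genes lay slightly above 0 without a call. BTG1, an antiproliferative gene, went from 242, 227 and 224 CPM to 518, 508 and 517 CPM, 2.23-fold (log2 fold change 1.16 ± 0.037, adjusted p = 6.77e-33). CDKN1A, the cyclin-dependent kinase inhibitor p21, moved the opposite way, from 316, 288 and 300 CPM to 188, 192 and 187 CPM, and CDKN2B fell 1.58-fold. CDKN2B was not called when any 1 of SNX631 replicates 1 and 3 and vehicle replicates 1 and 2 was left out, at log2 fold changes of -0.58 to -0.63. Of 25 mitosis genes and 24 DNA replication genes 0 were called, although 24 of the 25 mitosis genes lay above 0 with a median of 0.11, and 7 were higher and 0 lower at the false discovery rate alone (5.53% and 7.67% of all genes). The mitosis median was 0.07 in dKO-19M, 0.12 in dKO-8 and 0.01 in Rv1-WT in FBS. MKI67, a proliferation marker, was at 459, 504 and 490 CPM under vehicle and 529, 477 and 509 CPM under SNX631, with overlapping groups. MYCL fell 2-fold among 12 genes of the MYC network (8.33% called), and MYC, at a log2 fold change of -0.39, stayed within the fold limit. Of the immediate-early genes, EGR1 and EGR3 fell 2.17-fold and 2.05-fold and the ERK phosphatase DUSP6 rose 1.7-fold, among 23 (13%). EGR3 was not called without SNX631 replicate 1 (-0.92), SNX631 replicate 3 (-1.06) or vehicle replicate 2 (-0.89). IFI44L was the 1 interferon gene of 23 that rose, 2.25-fold, and NKILA the 1 called gene of 16 in the NF-kappaB list, shares of 4.35% and 6.25% that are near the 3.41% called over all genes. Each count was 2 with a library left out, SNX631 replicate 3 or vehicle replicate 3 for interferon and SNX631 replicate 2 for NF-kappaB. PSCA, prostate stem cell antigen, was the 1 called gene of 11 surface antigens, from 218, 204 and 211 CPM down to 95.5, 98.8 and 96.9 CPM.

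Other lists held no called gene. This applied to core Mediator (26 genes), ribosome biogenesis (22), heat shock (19), MHC class I (9), the EGF family (12), fatty acid synthesis (13), androgen and steroid metabolism (15), cytosolic ribosomal proteins (36) and the respiratory chain (30). The ribosomal proteins were low by a small and even margin, with 35 of 36 below 0, a median of -0.17 and 23 past the false discovery rate alone.

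**Figure D2:**
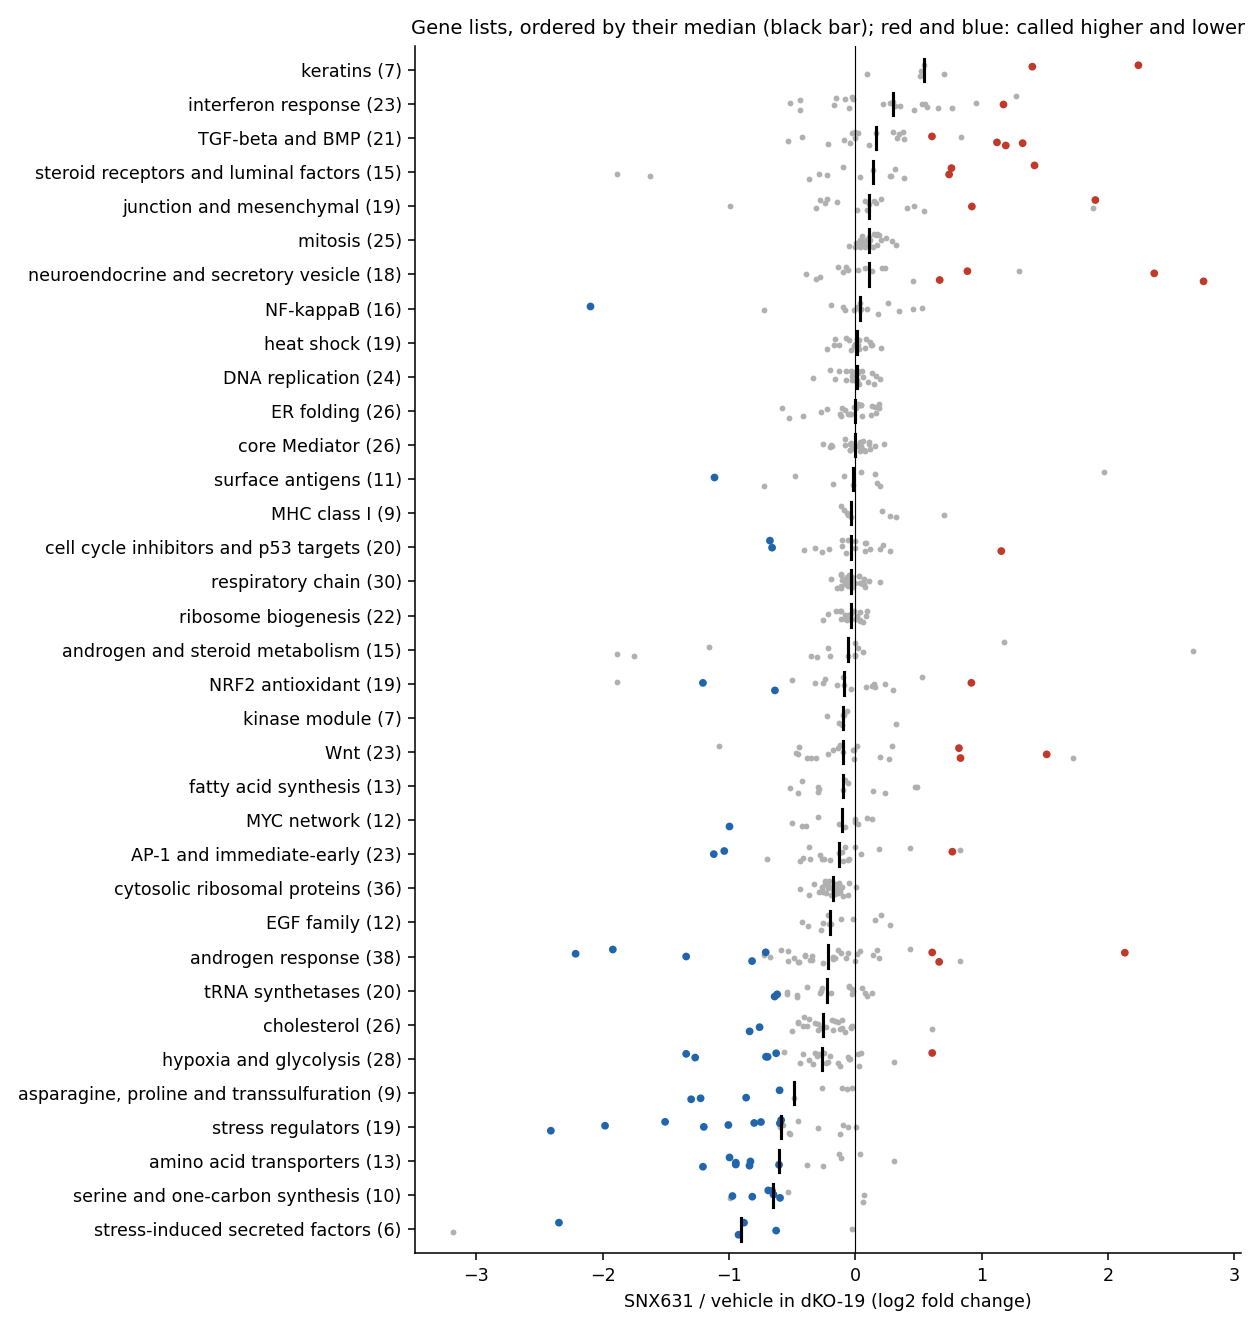
Log2 fold change, SNX631 over vehicle, of the tested genes of 35 gene lists in dKO-19, 1 point per gene, with the list median as a black bar and the number of genes in brackets; genes called higher are red and lower blue. Blue points gather in the 5 lists at the foot, whose medians run from -0.48 to -0.90, while ER folding, core Mediator and DNA replication centre near 0.

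The comparison with dKO-19M asked whether these changes needed the kinase activity of CDK19, since that line carries the inactive enzyme. The lines also differed under vehicle, with less CDK19 transcript in dKO-19M and other levels of genes such as TMPRSS2, NKILA and PSCA. Kinase activity and such other differences between the lines cannot be told apart. In dKO-19M the same treatment gave 18 calls (0.09%), 6 higher (0.03%) and 12 lower (0.06%), and 2951 genes at an unadjusted p under 0.05 (14.7%). The 375 genes that rose in dKO-19 had a median log2 fold change of 0.06 in dKO-19M, and 0 were called there. The 307 that fell had a median of -0.17, and 6 were called lower. Because the genes were chosen by their size in dKO-19, these medians describe dKO-19M and are no test. The difference of the effects, tested gene by gene, was called for 415 genes (2.07%), 247 more positive (1.23%) and 168 more negative (0.84%) in dKO-19. Among them were 213 of the 375 rises (56.8%) and 136 of the 307 falls (44.3%). The dKO-19 libraries that chose these rises and falls also enter the difference, so both shares partly follow from that choice and are no test. Without vehicle replicate 1 of dKO-19M, which stood apart, 414 differences were called, 355 of them shared with the 415. Its deviations went with those of SNX631 replicate 1 (correlation 0.477), which stayed in that fit. Without SNX631 replicate 1 instead, 375 were called, 350 of them shared, and leaving out both was not tested. With replicate effects within each line and medium in the fit, 414 were called, 390 of them shared.

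TMPRSS2 in dKO-19M was at 15.5, 15.6 and 15.5 CPM under vehicle and 16, 18.1 and 16.1 CPM under SNX631, so the effects differed by 2.03 ± 0.12 on the log2 scale (adjusted p = 5.06e-21). Its vehicle level in dKO-19 was lower than in dKO-19M, and its treated level higher. NKILA was low in dKO-19M whatever the treatment, at 13.7, 14.4 and 12.7 CPM under vehicle and 14.2, 14.6 and 15.5 CPM under SNX631, close to the 11.2 to 14.4 CPM of treated dKO-19. The difference was -2.22 ± 0.12 (adjusted p = 4.47e-22). BTG1, at 308, 285 and 278 CPM against 301, 289 and 291 CPM in dKO-19M, differed by 1.14 ± 0.052. Other genes with the lowest p in this difference were PPP3CA (calcineurin catalytic subunit), SFN (14-3-3 sigma), IL6R (the interleukin 6 receptor) and TRGC1 and TARP of the T cell receptor gamma locus. PPP3CA went from 166, 166 and 166 CPM to 374, 363 and 364 CPM in dKO-19 and had a log2 fold change of 0.11 in dKO-19M. IL6R went from 170, 163 and 166 CPM to 64.7, 66.5 and 66.2 CPM in dKO-19, with -0.22 in dKO-19M. TRGC1 and TARP overlap, with fractional counts in 97.9% and 93.8% of libraries, so they cannot be told apart.

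**Figure D3:**
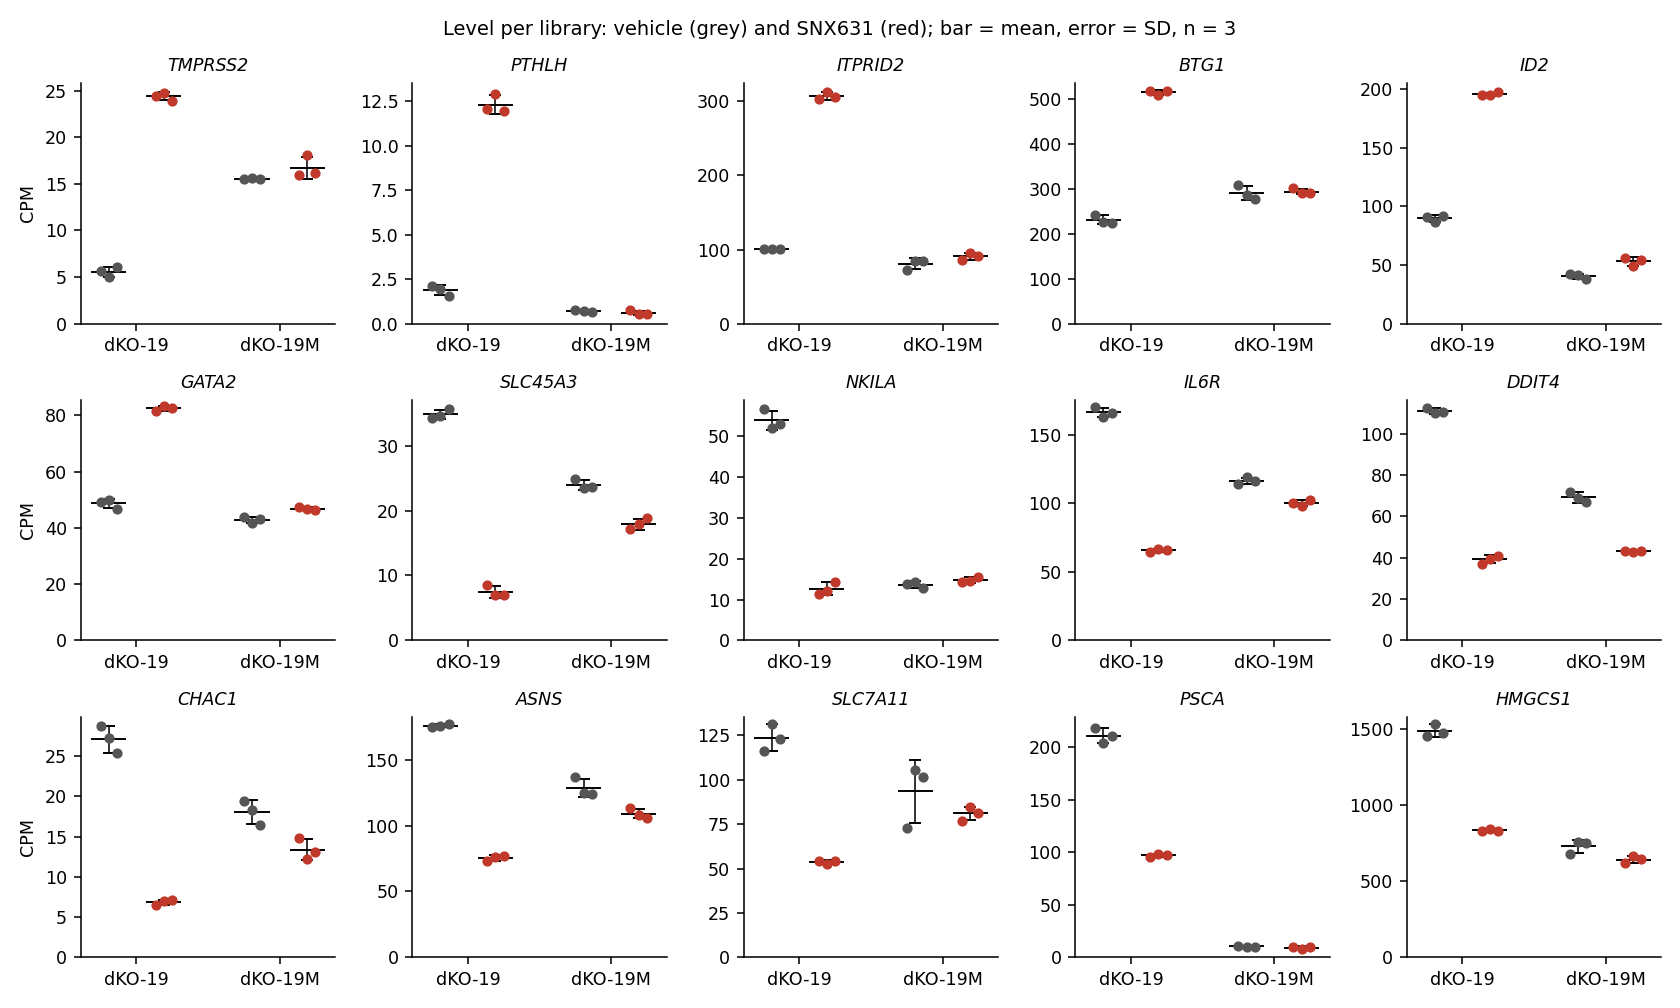
Level in CPM (linear axis from 0) of 15 genes in each of 3 vehicle (grey) and 3 SNX631 (red) libraries of dKO-19 and dKO-19M, with the mean as a bar and the SD as the error. In dKO-19 the grey and red points are apart in every panel; in dKO-19M they lie close together for genes such as BTG1, NKILA and PTHLH, and its vehicle level often differs from that of dKO-19, as for PSCA at 9.86 to 10.9 CPM.

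The stress genes kept a smaller downward shift in the kinase-inactive line. Over the 77 genes the median was -0.14 in dKO-19M, with 63 below 0 and 3 called lower (0.06% of all genes were). The difference between the lines was called for 14 of the 77, all more negative in dKO-19 (0.84% of all genes were), including CHAC1 (-1.54 ± 0.25, adjusted p = 3.01e-05) and ASNS (-0.99 ± 0.13, adjusted p = 1.63e-06). DDIT4 fell in dKO-19M as well, from 71.9, 68.9 and 66.9 CPM to 43.4, 42.7 and 43.4 CPM (log2 fold change -0.68, adjusted p = 0.000161), so that treated levels of both lines were close while vehicle levels were not. STC2 had log2 fold changes of -0.92 in dKO-19 and -0.53 in dKO-19M.

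**Figure D4:**
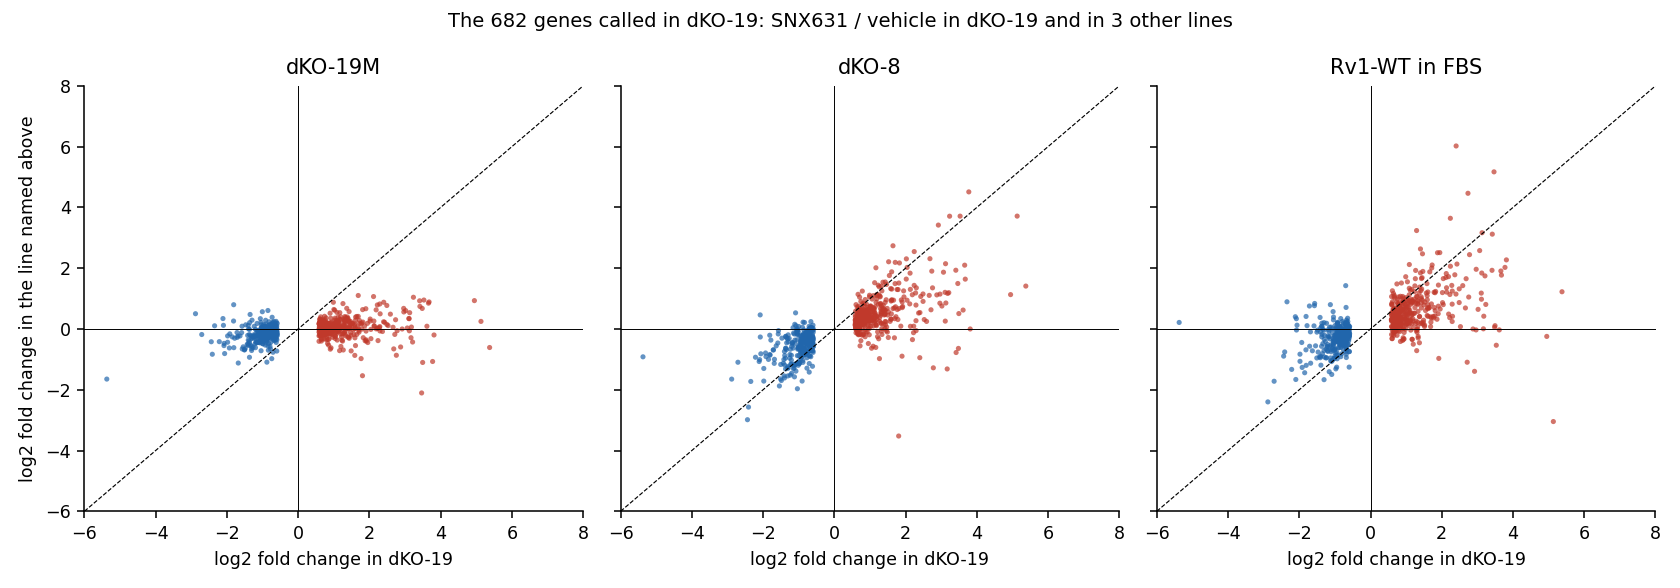
Each point is 1 of the 682 genes called in dKO-19 (red higher, blue lower), with its log2 fold change in dKO-19 on the x axis and in dKO-19M, dKO-8 or Rv1-WT in FBS on the y axis; the dashed line marks equal values. Points lie near 0 in dKO-19M, where the medians are 0.06 for rises and -0.17 for falls, and nearer the line in dKO-8 (0.44 and -0.49). In Rv1-WT the rises are also nearer the line (0.52), but the falls (-0.25) are close to those in dKO-19M. The falls have a median of -0.87 in dKO-19 itself.

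In dKO-8, where CDK8 is the active kinase, SNX631 gave 342 calls (1.71%), 131 higher (0.655%) and 211 lower (1.05%). By the study's Western blots, CDK19 protein in dKO-19 was far above that of parental cells, while CDK8 protein in dKO-8 was below the parental level. The study also made dKO-8 from knockout cells that already carried an empty lentiviral vector, a step that dKO-19 did not have. Which kinase is active, how much of it is present and this extra step therefore cannot be told apart between these lines. The study described the SNX631 effects on gene expression as similar in both. Of the 375 genes that rose in dKO-19, 79 were called higher in dKO-8, which is 21.1% of the dKO-19 rises and 60.3% of the dKO-8 rises. Of the 307 that fell, 110 were called lower in dKO-8, 35.8% of the dKO-19 falls and 52.1% of those in dKO-8. The difference between the effects was called for 177 genes (0.885%), 116 more positive (0.58%) and 61 more negative (0.305%) in dKO-19. RIMS3 gave the lowest p, at 61.8, 67.1 and 66.2 CPM under vehicle and 56.5, 64.3 and 61.7 CPM under SNX631 in dKO-8, with overlapping groups, against its rise in dKO-19 (difference 0.98 ± 0.068, adjusted p = 3.16e-16). CCDC85A was likewise level in dKO-8, with 4.42, 4.97 and 5.18 CPM against 4.23, 5.06 and 4.81 CPM, and went from 3.2, 2.57 and 2.92 CPM to 15.5, 13.9 and 13.4 CPM in dKO-19. PDK4, a kinase that restrains pyruvate entry into mitochondrial oxidation, went from 26.5, 27.3 and 23.3 CPM to 69.9, 70.8 and 69.3 CPM in dKO-19. In dKO-8 it read 10.9, 11.8 and 12.3 CPM against 13.8, 14.4 and 13.2 CPM, a difference between the lines of 1.21 ± 0.12. ITPRID2 and the ubiquitin-conjugating gene UBE2E3 differed by 1.10 and 0.92, both rising more in dKO-19. Not all of these rises were particular to dKO-19. Its differences from Rv1-WT in FBS were 0.06 for RIMS3 (adjusted p = 0.727) and -0.24 for PDK4 (adjusted p = 0.158), and neither was called. Those of CCDC85A, ITPRID2 and UBE2E3 were 1.05, 0.90 and 1.17, all called and more positive in dKO-19.

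The stress genes were low under SNX631 in dKO-8 too. Their median was -0.48, with 28 of the 77 called lower against 1.05% of all genes. The difference from dKO-19 was called for 1 of the 77, a share near the 0.885% of all genes. ASNS went from 203, 206 and 198 CPM to 90.8, 89.2 and 91 CPM in dKO-8, and its difference from dKO-19 was -0.06 ± 0.13. A difference that misses the threshold does not show equal effects.

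In Rv1-WT, with both kinase genes intact, 479 genes were called in FBS (2.39%), 350 higher (1.75%) and 129 lower (0.645%). Of the 375 rises in dKO-19, 124 were called higher there, 33.1% of the dKO-19 rises and 35.4% of those in Rv1-WT, and of the 307 falls 49 were called lower (16% and 38%). The difference of the effects was called for 287 genes (1.43%), 99 more positive (0.495%) and 188 more negative (0.94%) in dKO-19, a split that became 128 and 158 with library totals as the only scaling. Rv1-WT also did not go through the knockout and lentiviral steps. The kinases present and the making of the line therefore cannot be told apart in these differences. PTHLH stood out by direction. It fell in Rv1-WT, from 18.1, 14.5 and 17.5 CPM to 7.24, 7.67 and 8.52 CPM, and rose in dKO-19, so that the effects differed by 3.81 ± 0.22 (adjusted p = 1.14e-19). STXBP6 showed the reverse, rising from 13.6, 16.3 and 11.5 CPM to 21.2, 25.3 and 24.2 CPM in Rv1-WT and falling in dKO-19 from 10.1, 11.8 and 10.9 CPM to 4.07, 3.35 and 3.59 CPM. TUSC3, part of the oligosaccharyltransferase complex, rose in dKO-19 from 15.2, 13.7 and 13.3 CPM to 45.7, 45.1 and 45.6 CPM, while its vehicle level in Rv1-WT was already 138, 147 and 148 CPM. F3 (tissue factor) rose in Rv1-WT and had a log2 fold change of -0.57 in dKO-19, and TOB1 had 0.51 in Rv1-WT and -0.19 in dKO-19.

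The stress and ER lists parted between dKO-19 and Rv1-WT. The 77 stress genes had a median of -0.06 in Rv1-WT, with 3 called lower, and the difference was called for 20 of them, all more negative in dKO-19 (0.94% of all genes were). Rv1-Luc, a luciferase-expressing 22Rv1 line, had a median of -0.20 in FBS with 59 of the 77 below 0, against 49 in Rv1-WT and a median of 0.003 over all genes in both, and its difference from dKO-19 was not tested. DDIT4, at 160, 153 and 147 CPM under vehicle and 155, 127 and 146 CPM under SNX631 in Rv1-WT, differed by -1.40, and GPT2 by -0.76 ± 0.055. HSPA5 fell in Rv1-WT from 932, 940 and 894 CPM to 553, 541 and 523 CPM, where dKO-19 gave no call, a difference of 0.82 (adjusted p = 7.07e-13). The chaperone HSP90B1 differed by 0.80. Of the 26 ER folding genes 4 had a called difference, all more positive in dKO-19 (0.495% of all genes were). The ER list median was 0.002 in dKO-19, 0.025 in dKO-8, 0.021 in dKO-19M, -0.18 in Rv1-WT and -0.295 in Rv1-Luc, all in FBS. A median near 0 was thus not particular to dKO-19, and the difference from dKO-8 was called for 0 of the 26.

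**Figure D5:**
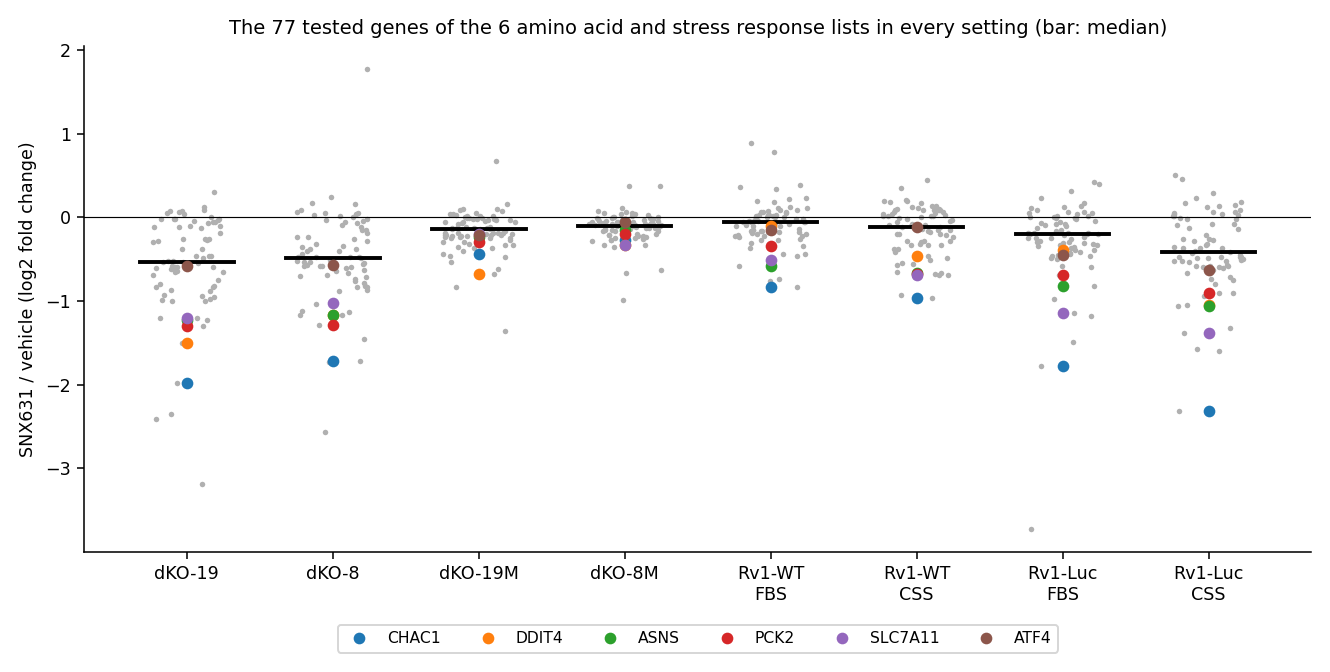
Log2 fold change under SNX631 of the 77 tested stress response genes in dKO-19 and the other 7 settings, 1 point per gene, with the median as a bar and 6 named genes coloured; CSS is charcoal-stripped serum, which is low in androgen. Medians are -0.53 in dKO-19, -0.48 in dKO-8, -0.14 in dKO-19M, -0.10 in dKO-8M, -0.06 and -0.11 in Rv1-WT in FBS and CSS, and -0.20 and -0.42 in Rv1-Luc in FBS and CSS.

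Fractional counts limit some of these values. Counts were fractional in over 25% of libraries for TENM2, CCDC85A, DDIT3, ASNS, MTHFD1L, SLC7A5, BBC3, ADM2, KLK4, NDRG1, PFKP, BTG1, DUSP6, KRT80, KRT15, RNF43, ID1, MED12, MED13, HSP90B1 and HOXB13, whose levels may include reads divided between genes or positions.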

How the data were processed

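Total RNA (RNeasy kit) of 48 cell samples was made into strand-specific libraries, per the labels, and 16 groups of 3 were read from the sample titles. The submitters' processing notes name FastQC, cutadapt 2.8, STAR 2.7.2b, featureCounts and Subread 2.0.3, and the builds GRCh38.p13 and GRCm39, without their roles. The deposited table holds 61817 entries, 2 of them transgenes, and its values, expected counts by gene, were produced by the authors from their reads. Just 81.6% of nonzero values were exactly whole (tolerance 0). How shared reads were counted is not given in the sources used here, and genes with paralogs or overlaps are uncertain. The deposited values are not scaled to depth.

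Computed here were all comparisons. Counts were rounded, transgenes left out, and genes kept by filterByExpr (minimum count 10, minimum total 15). All 48 libraries entered 1 fit of 16 group means (32 residual degrees of freedom, biological coefficient of variation 4.2%) with TMM scaling. The test was the two-sided quasi-likelihood F-test of edgeR 4.0.16 (R 4.3.3, robust) with Benjamini-Hochberg adjustment over 20009 genes, called at a false discovery rate under 0.01 and over 1.5-fold. Differences between lines were contrasts of their effects in that fit. SE is that of the log2 fold change. Checks used limma 3.58.1, DESeq2 1.42.0, other scalings and filters, and each library left out. The method was tested on simulated counts.

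Replicate numbers did not pair dKO-19 libraries, with same-number correlations of deviations of -0.057, -0.067 and 0.012. Named genes are the kinase module, the 15 largest rises and 15 largest falls among called genes of at least 1 CPM, called list members up to 6 per list with the lowest p, list members named as not called, and the 8 lowest p of each difference. Lists were described by counts and medians. The libraries, lists and rules were chosen with earlier results of these data known. Of the gene identifiers, 61766 matched the table of gene names, and 12620 of the tested genes matched a RefSeq promoter by symbol. Some genes of the lists are not reported here by name.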

Additional observations from a re-analysis of the deposited data

Results flagged for a closer look

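The effect of SNX631 differed between lines by the test of the difference itself for 415 genes against dKO-19M, 177 against dKO-8 and 287 against Rv1-WT in FBS (edgeR's quasi-likelihood test with Benjamini-Hochberg adjustment). Against dKO-19M the named genes differed on the log2 scale by 1.14 in BTG1, -2.22 in NKILA, 1.04 in PPP3CA, -1.06 in TRGC1, -1.07 in TARP, 2.03 in TMPRSS2, -1.12 in IL6R and 1.05 in SFN. Against dKO-8 they differed by 0.98 in RIMS3, -0.88 in IL6R, 0.71 in BTG1, 2.35 in CCDC85A, 0.64 in PPP3CA, 1.10 in ITPRID2, 0.92 in UBE2E3 and 1.21 in PDK4. Against Rv1-WT they differed by 3.81 in PTHLH, 1.47 in TUSC3, -1.41 in F3, -2.34 in STXBP6, 0.80 in HSP90B1, 1.89 in ZNF385B, -0.70 in TOB1 and -0.76 in GPT2. BTG1, PPP3CA and IL6R stood in 2 of these sets.

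The blasticidin resistance transgene BlastR, which entered no comparison, was counted in dKO-19 and not in Rv1-WT, where its 6 FBS libraries held 0 counts. Its counts in dKO-19 were 519, 503 and 559 under vehicle and 361, 414 and 375 under SNX631, or 24.9 ± 0.817 CPM and 18.1 ± 1.01 CPM (SD, n = 3). The log2 difference was -0.46, and the two-sided exact permutation test gave p = 0.1, the smallest that 3 against 3 libraries allow. The log2 difference was -0.61 in dKO-8 (exact p = 0.1), -0.01 in dKO-19M (exact p = 0.9) and 0.02 in dKO-8M (exact p = 1). Rv1-Luc also carried BlastR, at 84.5 CPM under vehicle and 80.7 CPM under SNX631 in FBS. Its log2 difference was -0.07 there and -0.10 in CSS (exact p = 0.3 for both).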

How the results depend on the processing

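The counts of called genes (682 in dKO-19, and 415, 177 and 287 for its differences from dKO-19M, dKO-8 and Rv1-WT) stayed within 1.5 times under other scalings, filters, sample sets and tools, at 535 to 746, 326 to 447, 146 to 258 and 231 to 324. A test against a 1.5-fold change gave 210, 83, 16 and 45 genes, and a false discovery rate under 0.05 with no fold limit gave 4116, 1975, 955 and 1532, both by their construction. Leaving out 1 library gave 601 to 648, 355 to 414, 141 to 179 and 249 to 278. The replicate block gave 682, 414, 179 and 295, with 664, 390, 166 and 272 shared. Same-number libraries of dKO-19 did not deviate together. In dKO-19M the correlations were 0.477, 0.308 and 0.192, with replicate 1 apart most in vehicle and less under SNX631. Of 139 genes named in the text, none that was called changed direction in its 15 to 17 settings; 13 lost their call when 1 dKO-19 library was left out (9 without SNX631 replicate 1 and 3 to 6 without each other library), as given beside their values. The 1.5-fold test took the call from 51 of them, and library totals as the only scaling from 8. Library totals as the only scaling moved the median of all genes to 0.05 and turned the sign of the medians of ribosome biogenesis, cell cycle inhibitors, MHC class I, surface antigens and the respiratory chain. Depth limits genes under about 1 CPM.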

Other observations

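Some called genes outside the lists and the largest changes were examined after their values had been seen. HIF1A, the oxygen-regulated factor, rose from 260, 265 and 260 CPM to 508, 483 and 480 CPM (log2 fold change 0.90), while 5 of the 28 hypoxia and glycolysis genes fell; counts of HIF1A were fractional in 45.8% of libraries. GDNF, a ligand that signals through RET, rose from 12.7, 14 and 13.8 CPM to 29.5, 29.1 and 27.6 CPM, and RET fell. In dKO-19M the log2 fold changes were 0.08 for HIF1A and 0.23 for GDNF, and the difference from dKO-19 was called for both (0.83 and 0.86). MGP, a matrix protein that inhibits calcification, rose from 8.53, 7.96 and 7.9 CPM to 34.5, 32.3 and 32.1 CPM (log2 fold change 2.02).

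Members of some families went opposite ways. Of the class 3 semaphorins, SEMA3C rose from 8.34, 10.1 and 9.43 CPM to 24.2, 22.5 and 23.6 CPM and SEMA3E fell from 30.7, 33.7 and 30.3 CPM to 13.4, 13.6 and 12.5 CPM. Of the HES repressors, HES7 rose (log2 fold change 0.93), and HES1 and HES6 fell (-0.71 and -0.82). The cytokine receptor LIFR fell by 0.82 on the log2 scale, as IL6R did by 1.34.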
